A study of Rattus norvegicus with 40 samples.

Results

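The genes described here encode potassium channel subunits other than the Kv4 channel complex. A list of 37 genes was given, and a gene was counted as measured where a probe set of the array carried exactly its symbol in the platform annotation. That held for 35 genes, of 14217 genes with such a probe set, while Kcng4 and Kcnn2 were not analysed here. They comprise 16 genes of voltage-gated (Kv) channels and their auxiliary subunits, 2 KCNQ genes, 6 inward rectifiers, 5 two-pore channels and 6 calcium- or sodium-activated channel genes. Where a gene had several probe sets, as for 16 of the 35, the one with the highest mean log2 signal over all 40 arrays stood for it.

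Potassium channels set the resting potential of a neuron, end its action potentials and limit how often it fires. In the dorsal root ganglion (DRG), Kv1 channels with their beta subunits sit along the axon and at its branch points, Kv3 channels allow fast repolarization, and Kv2 channels, whose properties change when silent subunits join them, act during repetitive firing. KCNQ channels carry the M-current, inward rectifiers include the channels opened by G proteins and by a fall in ATP, two-pore channels carry background current, and calcium-activated channels shape the afterhyperpolarization.

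Male Sprague-Dawley rats were operated by spinal nerve ligation (SNL), in which the L5 spinal nerve on 1 side is tied, or by a sham operation without the ligation. RNA was taken 4 weeks later from single DRGs of both sides, the ligated or sham-operated (ipsilateral) side and the other (contralateral) side. The 8 groups were ipsilateral and contralateral L5 DRGs of SNL rats, ipsilateral and contralateral L4 DRGs of the same SNL rats, whose own spinal nerve was not ligated, and the same 4 kinds of DRG of sham rats. Each group held 5 arrays, from SNL rats 4, 8, 9, 18 and 48 or sham rats 1, 14, 17, 22 and 23, and array values are given below in that order of rats. Values are linear array signals with no physical unit. A log2 fold change (ipsilateral over contralateral) was taken on log2(signal + 16), which understates the change of a dim gene, and a gene was called at an adjusted p under 0.05 in limma.

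The tissue carried its neuronal markers: the summed signal of 7 neuronal genes was 11325 to 13453 in ipsilateral and 10648 to 13335 in contralateral L5 DRGs of SNL rats. Of the 7, Rbfox3 (-2.05), Elavl4 (-1.02) and Snap25 (-0.42) were called lower and Stmn2 (0.41), Prph (0.39) and Tubb3 (0.32) higher. Several facts of the arrays move with the SNL L5 comparison, and their part in the results below was not tested. Skeletal muscle transcripts stood out in the contralateral L5 arrays of SNL rats, where the 4 muscle genes (Acta1, Ckm, Myh4, Tnnt3) summed to 2399 to 2788, to 102 to 127 in ipsilateral ones and to 88.1 to 243 in the other groups. Macrophage genes summed to 642 to 748 in ipsilateral and 181 to 213 in contralateral L5 DRGs, and 5 of 7 were called higher. All 5 measured Schwann cell genes were higher, by 0.31 to 0.71 on the log2 scale, and summed to 7383 to 9582 in ipsilateral and 5659 to 7518 in contralateral L5 DRGs. All 4 measured neutrophil and red blood cell genes were lower, and summed to 3209 to 3595 in ipsilateral and 3878 to 5468 in contralateral L5 DRGs. Pericyte and smooth muscle genes summed to 644 to 703 in ipsilateral and 373 to 429 in contralateral L5 DRGs, with 4 of 8 called higher and 1 lower. Endothelial genes summed to 722 to 805 and 597 to 686 (3 of 5 higher, 1 lower), and T cell genes to 79.3 to 97.2 and 49.3 to 74.0 (2 of 5 higher, 0 lower). All 6 genes of large myelinated neurons and all 6 measured genes of nociceptors were called lower. GAPDH probe sets at the 3′ and 5′ end, whose log2 ratio is higher in degraded RNA, gave a ratio of 1.45 to 1.72 in ipsilateral and 0.89 to 1.10 in contralateral L5 DRGs. The array titles place the 10 SNL L5 arrays in a series apart from the other 30. In whole ganglia, fewer cells of a type and less RNA per cell cannot be told apart.

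**Figure D1:**
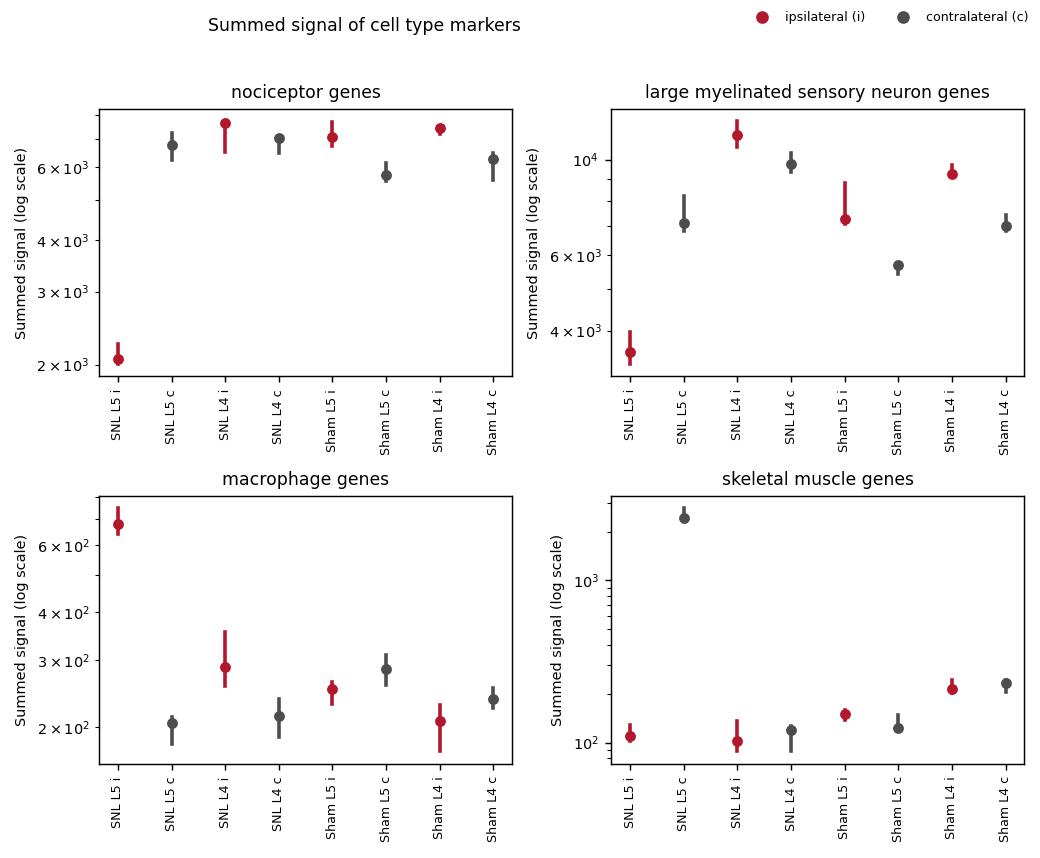
Summed signal (log axis) of the measured marker genes of nociceptors, large myelinated sensory neurons, macrophages and skeletal muscle in each of the 8 groups. Points are medians and lines span the lowest to the highest of 5 arrays. Skeletal muscle genes reached 2399 to 2788 in contralateral SNL L5 and 88.1 to 243 in the other groups.

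RefSeq promoter windows (GRCr8, 250 bases before to 50 bases after the transcription start) were found for 23 of the 35 measured genes and for 12 of the 16 called lower in SNL L5. The windows of the 4 genes with the largest falls there are shown for what lies upstream of them, each from 5′ to 3′ on the gene's strand, with matches to 5 short promoter motifs in capitals. Both strands were searched for each. The GC box, which Sp1 family factors bind, was read as GGGCGG. The box bound by NF-Y was read as CCAAT. The cyclic AMP response element (CRE) was read as TGACGTCA. The site of AP-1 factors such as Jun was read as TGANTCA, with N for any base. The TATA box was read as TATAAA, and none of the 5 contains another. They lie at chr2:151614301-151614600 (+) for Kcnab1, chr6:39584056-39584355 (-) for Kcns3, chr3:173262297-173262596 (-) for Kcns1 and chr7:49587364-49587663 (+) for Kcnc2. For Kcns3 and Kcnc2 the table holds 2 starts, and the first is shown.
Kcnab1: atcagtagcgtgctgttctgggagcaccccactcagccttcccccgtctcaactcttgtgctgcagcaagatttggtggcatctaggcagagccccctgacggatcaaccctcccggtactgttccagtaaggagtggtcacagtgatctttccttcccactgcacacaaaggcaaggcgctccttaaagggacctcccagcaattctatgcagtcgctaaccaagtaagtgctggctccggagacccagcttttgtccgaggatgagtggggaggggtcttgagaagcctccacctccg
Kcns3: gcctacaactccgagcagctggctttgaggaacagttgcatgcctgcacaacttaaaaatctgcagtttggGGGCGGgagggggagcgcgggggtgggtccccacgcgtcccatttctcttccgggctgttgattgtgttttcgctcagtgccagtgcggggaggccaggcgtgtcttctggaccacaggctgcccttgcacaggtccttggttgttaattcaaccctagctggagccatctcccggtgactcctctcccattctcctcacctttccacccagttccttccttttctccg
Kcns1: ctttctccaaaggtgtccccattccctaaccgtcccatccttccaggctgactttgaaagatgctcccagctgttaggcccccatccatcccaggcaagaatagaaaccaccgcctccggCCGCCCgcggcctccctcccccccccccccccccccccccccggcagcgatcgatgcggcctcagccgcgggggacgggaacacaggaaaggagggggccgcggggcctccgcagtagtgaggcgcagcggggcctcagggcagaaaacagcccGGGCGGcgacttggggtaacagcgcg
Kcnc2: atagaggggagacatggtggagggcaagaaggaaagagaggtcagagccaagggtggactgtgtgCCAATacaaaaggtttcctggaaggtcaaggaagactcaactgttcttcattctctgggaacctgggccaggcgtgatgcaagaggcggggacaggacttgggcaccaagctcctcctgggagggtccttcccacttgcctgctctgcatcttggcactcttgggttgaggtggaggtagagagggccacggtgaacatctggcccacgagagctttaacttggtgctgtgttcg

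None of the 5 motifs was found in all 4 windows. Kcns1 held 2 GC boxes, Kcns3 held 1, Kcnc2 held 1 CCAAT box and Kcnab1 held none of the 5 motifs. Their GC content was 56.7% for Kcnab1, 58.3% for Kcns3, 69% for Kcns1 and 56% for Kcnc2. Over all 33469 promoter windows, 33.1% held a GC box and 37.5% a CCAAT box. Of the 12 genes called lower in SNL L5 that had a window, 8 held a GC box and 5 a CCAAT box in any of their windows. A gene with several starts has more chances of a match, so these counts of genes are not like the shares of windows. No CRE, AP-1 site or TATA box was found in the windows of the 23 measured genes, against 1.83%, 7.33% and 14.2% of all windows. A match is a string of letters and was not tested as a binding site.

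The largest changes lay in L5 DRGs after ligation. Of the 35 genes, 16 were called lower and 4 higher in ipsilateral than in contralateral L5 DRGs of SNL rats, where 16.8% of all 31042 probe sets were called lower and 30.3% higher. Over the brightest probe set of each gene, the measure used for the 35, the shares were 19.0% lower and 35.4% higher. The median log2 fold change was -0.11 over the 35 genes and 0.12 over all probe sets. Kv genes made up most of the falls, with 12 of 16 lower, 1 higher and a median of -0.72. The other classes held 1 of 2 KCNQ genes lower, 1 lower and 1 higher of 6 inward rectifiers, 1 higher of 5 two-pore channels, and 2 lower and 1 higher of 6 calcium- or sodium-activated genes. The 2 sides did not overlap in 17 of the 35 genes, against 33.9% of all probe sets. Among genes of mean signal 50 or more, 13 of 18 of these channel genes and 2340 of 8092 genes in all were called lower. The count of 16 lower genes was also 16 in quantile-normalized data and in data scaled to equal medians, steps that moved the median of all probe sets to 0.025 and 0.0039. The split of all calls between higher and lower did move, with 9408 higher and 5230 lower probe sets as deposited, 6616 and 6155 after quantile normalization, and 5221 and 7584 with equal medians.

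**Figure D2:**
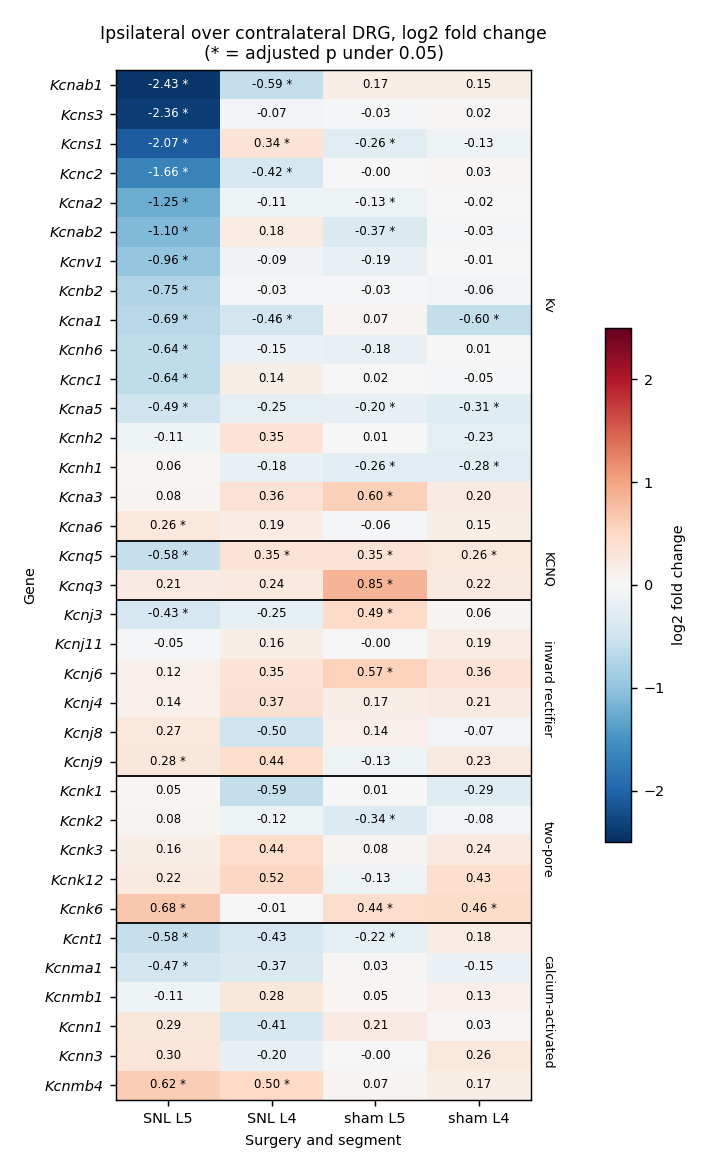
Log2 fold change of the 35 potassium channel genes (rows, grouped by class) in SNL L5, SNL L4, sham L5 and sham L4, as colour and number, with a star where limma's adjusted p was under 0.05. The darkest cells are Kv genes in SNL L5, led by Kcnab1 at -2.43, Kcns3 at -2.36 and Kcns1 at -2.07.

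Kcnab1, which encodes the beta subunit Kvbeta1 that speeds inactivation of Kv1 channels, showed the largest fall. Its signals were 136, 147, 165, 131 and 176 in ipsilateral L5 DRGs of SNL rats, against 948, 795, 911, 835 and 894 in contralateral ones. Every ipsilateral array lay far below every contralateral array, at a mean that was 17.2% of the contralateral mean. The log2 fold change was -2.43 (SE 0.07, limma adjusted p = 4.94e-14). Its second probe set, which was much dimmer, was also lower, at a mean of 26.0 against 54.2 and a log2 fold change of -0.75 (adjusted p = 3.56e-05).

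Kcnab2, the gene of Kvbeta2, which helps bring Kv1 channels to the axon, fell less. Its signals were 159, 151, 138, 164 and 139 in ipsilateral and 361, 340.4, 344, 328 and 332 in contralateral L5 DRGs of SNL rats, again without overlap. The log2 fold change was -1.10 (SE 0.06, limma adjusted p = 7.29e-11). The 4 probe sets of this gene did not move together. The second by brightness was higher on the ipsilateral side, at 62.3 ± 8.97 against 42.9 ± 2.42 (SD, n = 5 each; log2 fold change 0.40, limma adjusted p = 0.0017), while the remaining 2 were lower, with log2 fold changes of -1.002 and -0.43.

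Kcns3, Kcns1 and Kcnv1, the genes of silent Kv2 subunits measured among the members, were all called lower. Other silent subunit genes belong to the list of further potassium channel genes described below. Kcns3, the gene of the silent subunit Kv9.3, had signals of 56.1, 56.9, 58.8, 64.8 and 42.7 in ipsilateral and 379, 346, 332, 348 and 351 in contralateral L5 DRGs of SNL rats. No ipsilateral array came near a contralateral one, and the log2 fold change was -2.36 (SE 0.08, limma adjusted p = 1.32e-13). Kcns1, the gene of the related silent subunit Kv9.1, had signals of 21.97, 15.3, 11.5, 11.8 and 12.3 in ipsilateral and 106, 120.1, 116, 106 and 111 in contralateral L5 DRGs. Its ipsilateral signals lay below the median signal of every array (28.6 to 55.6), and its log2 fold change of -2.07 (SE 0.10, limma adjusted p = 2.90e-11) therefore understates the ratio of the means, 13.03%. Kcnv1, which encodes the silent subunit Kv8.1, was dim on both sides, at 16.7 ± 5.37 in ipsilateral and 47.5 ± 9.92 in contralateral DRGs (SD, n = 5 each), and was called lower at -0.96 (limma adjusted p = 1.47e-05).

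Kcnb2, a pore-forming subunit of the Kv2 channels that these silent subunits join, had signals of 19.2, 28.3, 23.01, 32.9 and 23.5 in ipsilateral and 52.0, 54.5, 43.4, 49.9 and 67.9 in contralateral L5 DRGs of SNL rats. The sides did not overlap, although the signals were low, and the log2 fold change was -0.75 (SE 0.12, limma adjusted p = 4.84e-05).

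Both Kv3 genes among the members were lower. Kcnc2, the gene of Kv3.2, had signals of 96.1, 129.6, 119.9, 101 and 116 in ipsilateral and 444, 313, 400.0, 393 and 405 in contralateral L5 DRGs of SNL rats. The ipsilateral arrays lay within a narrow band well below the lowest contralateral array, and the log2 fold change was -1.66 (SE 0.09, limma adjusted p = 6.37e-11). Its second probe set went the other way, at 39.4 ± 7.50 against 28.0 ± 6.87 (SD, n = 5 each; log2 fold change 0.34, limma adjusted p = 0.0403), with the sides overlapping. Kcnc1, the gene of Kv3.1, had signals of 85.1, 68.6, 58.8, 87.9 and 68.3 in ipsilateral and 113, 117, 125, 127 and 132 in contralateral DRGs. The sides were apart, and the log2 fold change was -0.64 (SE 0.09, limma adjusted p = 1.51e-05).

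Among the pore-forming Kv1 genes of the members, Kcna2 and Kcna1 were the clearest. Kcna4 (Kv1.4), which fell further, belongs to the list of further potassium channel genes described below. Kcna2, whose Kv1.2 subunit lies beside the nodes of Ranvier, had signals of 172, 169, 146, 159 and 173 in ipsilateral and 407, 417, 411, 422 and 397 in contralateral L5 DRGs of SNL rats. The highest ipsilateral array lay far under the lowest contralateral one, with a log2 fold change of -1.25 (SE 0.06, limma adjusted p = 6.61e-12). Its second probe set was very dim, at 3.86 against 4.84, and was not called (log2 fold change -0.08, limma adjusted p = 0.559). Kcna1, the gene of Kv1.1, had signals of 360.4, 313, 365, 327 and 327 in ipsilateral and 561, 558, 512, 578 and 557 in contralateral DRGs. These groups were also apart, with a smaller log2 fold change of -0.69 (SE 0.06, limma adjusted p = 1.75e-08). Kcna5 (Kv1.5) averaged 47.3 ± 5.94 in ipsilateral and 73.2 ± 8.36 in contralateral DRGs (SD, n = 5 each) and was called lower at -0.49 (limma adjusted p = 3.32e-04). Kcna6 (Kv1.6) was the only Kv gene among the members called higher, at 149 ± 24.7 against 122 ± 19.7 (SD, n = 5 each). The call, at a log2 fold change of 0.26 (limma adjusted p = 0.0488), was lost in quantile-normalized data (adjusted p = 0.117). It was also lost on leaving out any 1 of 7 arrays (ipsilateral rats 4, 9 and 18, and contralateral rats 4, 8, 9 and 48).

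The remaining Kv genes were dim or did not pass the test. Kcnh6, of the ether-a-go-go-related family, averaged 18.01 ± 4.82 in ipsilateral and 37.4 ± 9.95 in contralateral L5 DRGs (SD, n = 5 each) and was called lower at -0.64 (limma adjusted p = 0.00105). Kcnh1 (0.06), Kcnh2 (-0.11) and Kcna3 (0.08) were not called, and their sides overlapped.

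**Figure D3:**
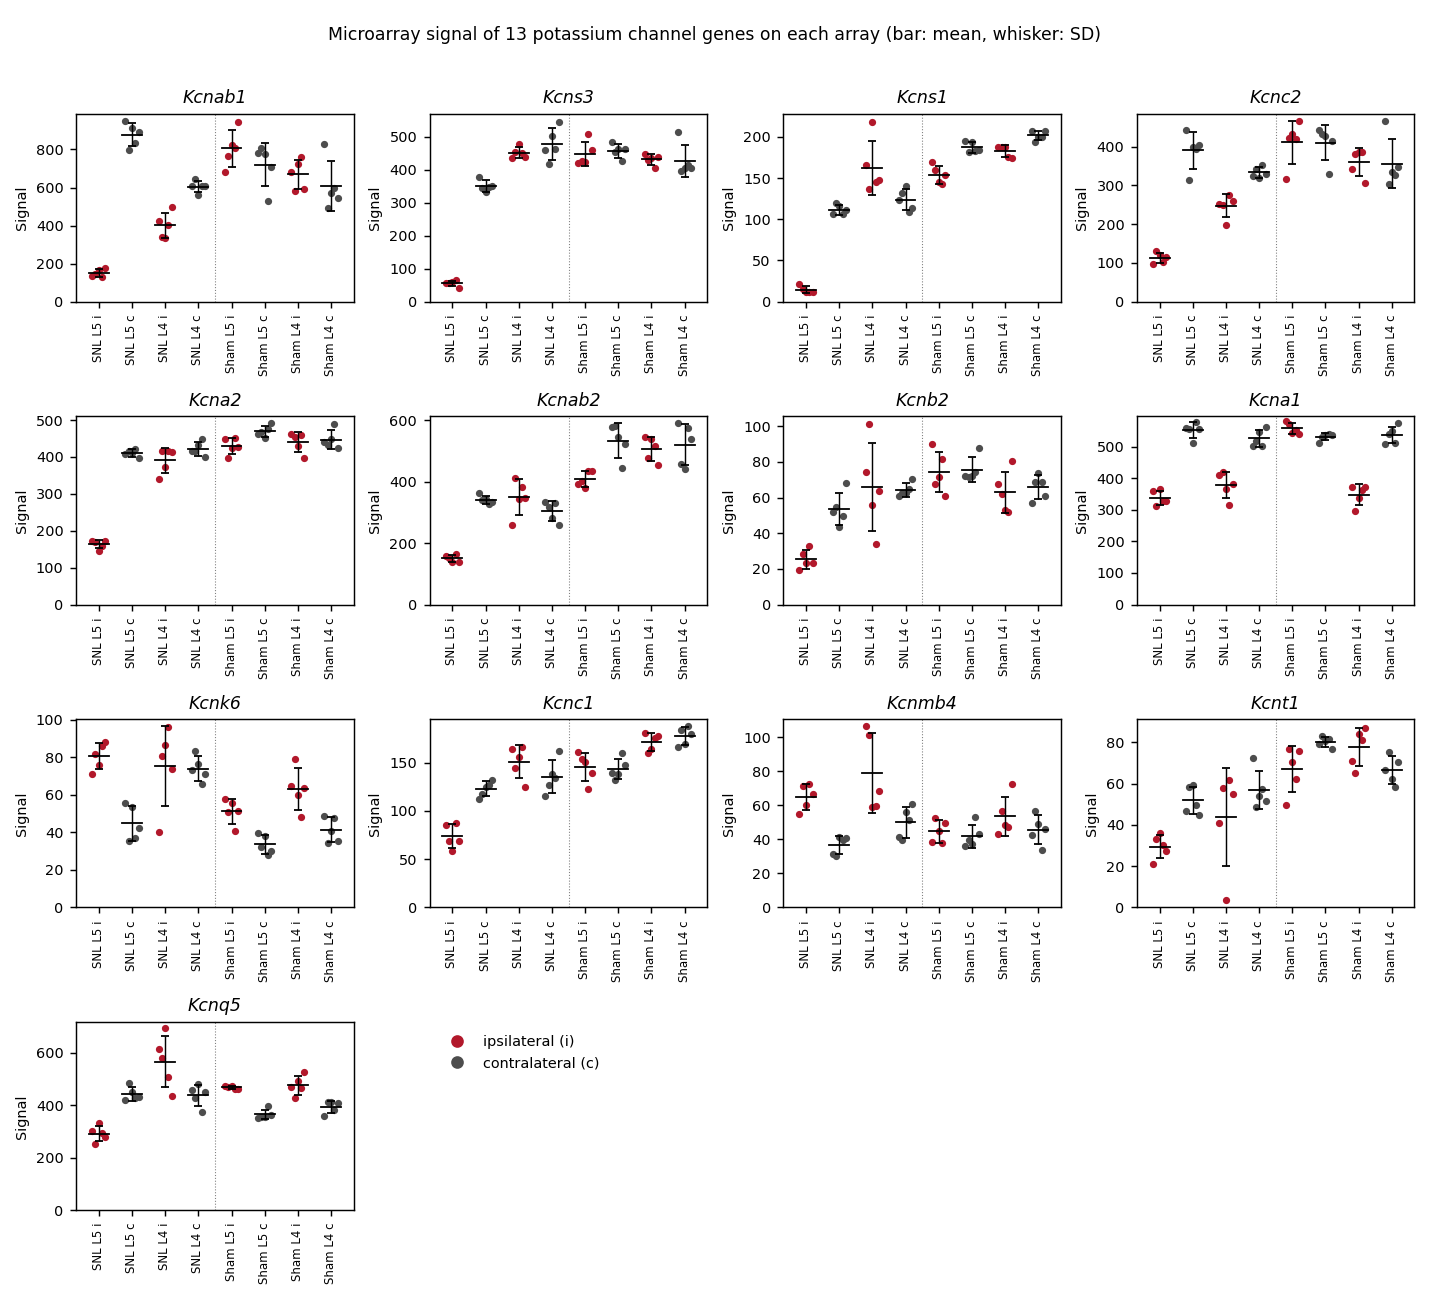
Signal (linear axis from 0) of 13 potassium channel genes on each of 5 arrays in the 8 groups, with ipsilateral arrays in red, contralateral arrays in grey, the mean as a bar and the SD as a whisker. The ipsilateral SNL L5 arrays are the lowest of all 8 groups for Kcnab1, Kcns3, Kcns1, Kcnc2, Kcna2 and Kcnab2, and for Kcns3 they span 42.7 to 64.8 where contralateral arrays span 332 to 379.

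Of the KCNQ genes, Kcnq5 was lower and Kcnq3 was not called. Kcnq5, a subunit of M-current channels, had signals of 302, 253, 332, 295 and 279 in ipsilateral and 421, 485, 449, 429 and 431 in contralateral L5 DRGs of SNL rats. The sides did not overlap, and the log2 fold change was -0.58 (SE 0.07, limma adjusted p = 1.18e-06). Its dimmer probe sets were not called, with log2 fold changes of -0.04 (34.7 against 35.4, limma adjusted p = 0.863) and 0.0033 (adjusted p = 0.989). Kcnq3, the partner subunit in many M-current channels, averaged 27.6 ± 5.35 in ipsilateral and 21.6 ± 3.09 in contralateral DRGs (SD, n = 5 each), a log2 fold change of 0.21 (limma adjusted p = 0.153).

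The inward rectifiers were dim, and only 2 of 6 were called. Kcnj3, a G protein-gated channel (GIRK1), averaged 42.9 ± 8.02 in ipsilateral and 63.5 ± 11.6 in contralateral L5 DRGs of SNL rats (SD, n = 5 each), with a log2 fold change of -0.43 (limma adjusted p = 0.0068) and overlapping sides. Kcnj9, another G protein-gated subunit (GIRK3), was called higher at 0.28 (limma adjusted p = 0.0312), but at mean signals of only 6.39 against 2.47, and its call did not hold in quantile-normalized data (adjusted p = 0.121), with equal medians (adjusted p = 0.0753) or without ipsilateral rat 18 or 48 or contralateral rat 4, 9 or 18. Kcnj6 (0.12), Kcnj4 (0.14), Kcnj8 (0.27) and the ATP-sensitive channel gene Kcnj11 (-0.05) were not called. The second probe set of Kcnj6 was called lower, at 7.29 against 18.9 without overlap (log2 fold change -0.58, limma adjusted p = 4.12e-04).

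Kcnk6, the gene of TWIK-2, was the only two-pore channel gene called among the members. Kcnk5, another two-pore channel gene that was called higher, belongs to the list of further potassium channel genes described below. Its signals were 71.0, 81.8, 76.2, 86.3 and 88.5 in ipsilateral and 55.7, 35.6, 53.4, 37.2 and 42.3 in contralateral L5 DRGs of SNL rats, so that every ipsilateral array was above every contralateral one. The log2 fold change was 0.68 (SE 0.10, limma adjusted p = 3.97e-05). Kcnk1, Kcnk2 (TREK-1, a mechanically gated channel), Kcnk3 (TASK-1, an acid-sensitive channel) and Kcnk12 lay between 0.05 and 0.22 on the log2 scale, none of them called.

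The calcium- and sodium-activated genes moved in both directions. Kcnmb4, a beta subunit of the large-conductance BK channel that is found mainly in neurons, had signals of 54.6, 71.3, 60.1, 72.5 and 66.3 in ipsilateral and 31.3, 30.2, 41.1, 39.8 and 40.9 in contralateral L5 DRGs of SNL rats. The ipsilateral arrays were all higher, with a log2 fold change of 0.62 (SE 0.10, limma adjusted p = 7.01e-05). Kcnma1, the pore-forming subunit of the same BK channel, went the other way, at 62.0 ± 6.71 in ipsilateral and 91.6 ± 5.21 in contralateral DRGs (SD, n = 5 each) without overlap, a log2 fold change of -0.47 (limma adjusted p = 1.23e-04). Kcnt1, which encodes a sodium-activated channel, had signals of 21.1, 33.1, 36.1, 30.1 and 27.1 in ipsilateral and 47.0, 58.4, 59.3, 49.8 and 44.6 in contralateral DRGs. Its sides were apart as well, and its log2 fold change was -0.58 (SE 0.11, limma adjusted p = 3.84e-04). Kcnn1 (0.29), Kcnn3 (0.30) and Kcnmb1 (-0.11) were not called, and the sides of each overlapped.

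With muscle transcripts in the contralateral SNL L5 arrays, the ipsilateral SNL L5 arrays were also set against the sham L5 arrays, a choice made after the data were seen. Muscle genes summed to 137 to 160 in ipsilateral and 118 to 147 in contralateral sham L5 DRGs. Against ipsilateral sham DRGs, 16 of the 35 genes were lower and 4 higher, and 15 of the 16 genes that were lower against contralateral SNL DRGs were among the lower ones. Against contralateral sham DRGs, 18 were lower and 9 higher, and again 15 of the 16 were shared. In those fits 17% and 23.4% of all probe sets were called lower, and 31.3% and 45.6% higher. Kcns3 averaged 55.8 in ipsilateral SNL L5 DRGs, against 447.5 in ipsilateral and 458 in contralateral sham L5 DRGs, and Kcns1 averaged 14.6, against 154 and 187. Of the 16, Kcnj3 was the one that did not hold, with log2 fold changes of 0.01 (limma adjusted p = 0.927) against ipsilateral and 0.50 (adjusted p = 0.00313) against contralateral sham DRGs. These comparisons cross the array series, so series and surgery cannot be told apart in them.

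The side difference in SNL rats was then tested against that in sham rats. At L5, 21 of the 35 genes differed, with a lower side difference in SNL rats for 17 and a higher one for 4. Of all probe sets 43.2%, and of those brightest for their gene 50.3%, were called. The largest differences were those of Kcnab1 (-2.59), Kcns3 (-2.33), Kcns1 (-1.82), Kcnc2 (-1.66) and Kcna2 (-1.12), with limma adjusted p-values of 3.21e-16 to 2.05e-10. On their second probe sets Kcnc2 (-0.36, limma adjusted p = 0.0715) and Kcna2 (-0.08, adjusted p = 0.680) were not called. Kcnq5 differed by -0.93 (limma adjusted p = 4.78e-10). It was lower on the ipsilateral side in SNL rats and higher in sham rats, where it averaged 469 ± 5.69 in ipsilateral and 365 ± 18.4 in contralateral DRGs (SD, n = 5 each; log2 fold change 0.35), although with equal medians the sham value was 0.045 and not called (limma adjusted p = 0.409). Kcnj3 differed by -0.91 and was likewise higher in sham L5, by 0.49. Kcnq3 differed by -0.64, although it was not called in SNL L5 (0.21) and was called higher in sham L5 (0.85). It averaged 27.6 in ipsilateral and 21.6 in contralateral L5 DRGs of SNL rats, and 27.4 and 8.12 in those of sham rats. Kcnmb4 (0.55), Kcnk2 (0.42), Kcnj9 (0.41) and Kcna6 (0.32) made up the 4 higher genes. Among these, Kcnk2 was not called in SNL L5 (0.08) and was called lower in sham L5 (-0.34). With the rat as a block the differences of Kcna5 (-0.29) and Kcnh6 (-0.46) were not called (limma adjusted p = 0.0797 and 0.103). Leaving out single arrays ended the call of Kcna5 and Kcna6 in 13 of 20 cases, of Kcnh6 and Kcnt1 in 10 and of Kcnk2 in 7. Quantile normalization ended the calls of Kcnk2 (0.26, limma adjusted p = 0.202) and Kcna6 (0.15, adjusted p = 0.380), and equal medians those of Kcna5 (-0.17, adjusted p = 0.242), Kcnh6 (-0.32, adjusted p = 0.155) and Kcnt1 (-0.22, adjusted p = 0.210). The block added calls for Kcna3 (-0.52, limma adjusted p = 0.0235) and Kcnh1 (0.31, adjusted p = 0.0397). Kcnk6, called higher after ligation, was also higher in ipsilateral sham L5 DRGs, at 51.2 ± 6.73 against 33.6 ± 5.10 (SD, n = 5 each; log2 fold change 0.44), and the difference between the operations was not called. For this contrast the SNL L5 and sham L5 arrays come from different series, although each side difference stays within 1.

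**Figure D4:**
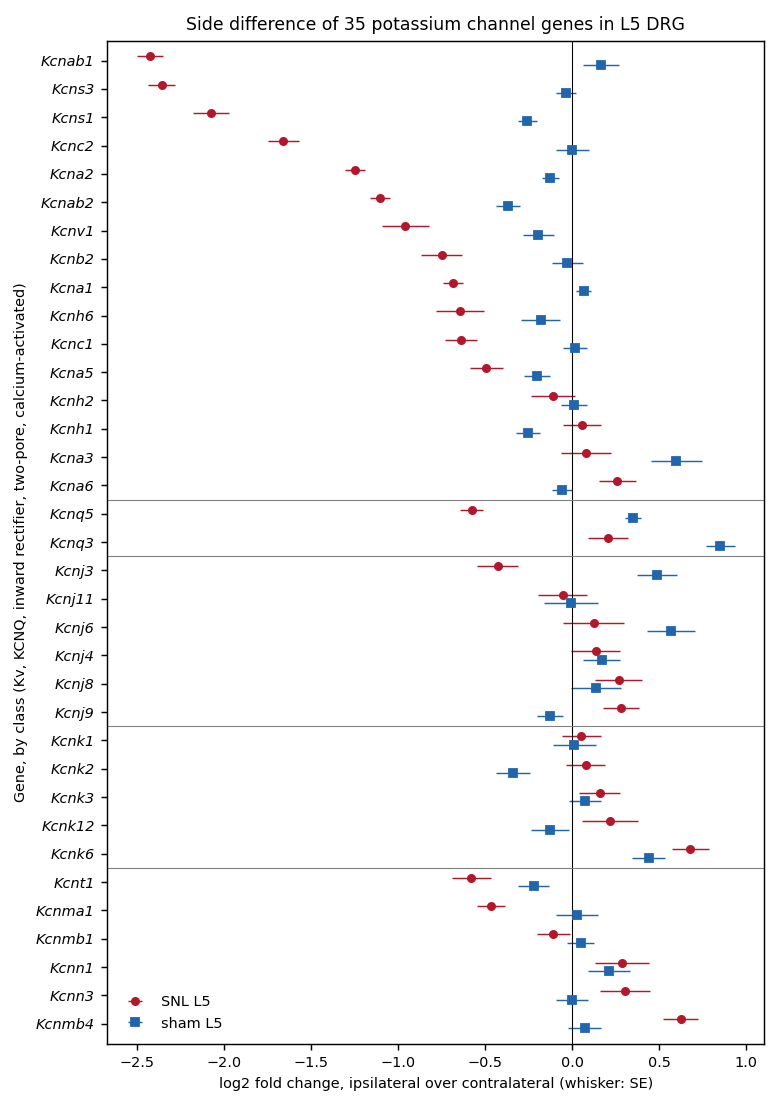
Log2 fold change of ipsilateral over contralateral L5 DRGs with its SE (horizontal axis) for the 35 potassium channel genes by class, in SNL rats (circles) and sham rats (squares). From Kcnab1 at -2.43 to Kcnab2 at -1.10 the SNL values lie well left of the sham values, none of which is below -0.37.

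In L4 DRGs, whose spinal nerve was left intact, changes were fewer and smaller. After SNL, 3 of the 35 genes were lower and 3 higher on the ipsilateral side, against 9.01% and 10.1% of all probe sets. The sides did not overlap in 4 of the 35, against 15% of all probe sets. Kcnab1 had signals of 425, 339.6, 336, 405 and 498 in ipsilateral and 606, 644, 561, 608 and 606 in contralateral L4 DRGs, apart on the 2 sides, with a log2 fold change of -0.59 (SE 0.09, limma adjusted p = 1.21e-04). Kcna1 was lower by -0.46 (379 ± 41.6 against 527 ± 26.4, SD, n = 5 each, limma adjusted p = 2.02e-04) and Kcnc2 by -0.42 (247 ± 29.6 against 334 ± 14.2, SD, n = 5 each, limma adjusted p = 0.00116), both without overlap. Kcns3, which fell strongly in L5, was at 451 ± 16.5 in ipsilateral and 478 ± 48.5 in contralateral L4 DRGs (SD, n = 5 each; log2 fold change -0.07, limma adjusted p = 0.512).

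The 3 genes called higher in SNL L4 rested on less. Kcnmb4 averaged 78.9 ± 23.2 in ipsilateral and 49.8 ± 9.04 in contralateral L4 DRGs (SD, n = 5 each), a log2 fold change of 0.50 (limma adjusted p = 0.0414) that was 0.0688 in adjusted p with the rat as a block. Kcnq5 was higher by 0.35 (limma adjusted p = 0.0201) and Kcns1 by 0.34 (adjusted p = 0.0463). The sides overlapped for all 3. Kcnmb4 and Kcns1 were not called without any 1 of 6 of the 10 arrays, and Kcnq5 was not called without ipsilateral rat 4 or 9 or contralateral rat 18. With equal medians none of the 3 was called (limma adjusted p = 0.115 for Kcnmb4, 0.195 for Kcnq5 and 0.252 for Kcns1), and quantile normalization ended the calls of Kcnmb4 and Kcns1. With equal medians 7 genes were called lower. Over all probe sets the scaling gave 1586 higher and 4182 lower calls, against 3140 and 2798 as deposited. The GAPDH 3′ to 5′ log2 ratio was 2.15 to 2.47 in ipsilateral and 1.32 to 1.46 in contralateral L4 DRGs after SNL, the widest gap of the 4 comparisons. Of 4 neutrophil and red blood cell genes, 3 were called lower there, S100a8 (-3.52), S100a9 (-2.02) and Hbb (-1.17), and the 4 summed to 918 to 1156 in ipsilateral and 2785 to 3164 in contralateral L4 DRGs. Of 7 macrophage genes 3 were called higher, at sums of 256 to 356 in ipsilateral and 189 to 238 in contralateral L4 DRGs. The part of these measures in the L4 values was not tested.

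When SNL was set against sham at L4, 4 of the 35 genes differed, against 14% of all probe sets and 16.7% of those brightest for their gene. Kcnab1 (-0.74, limma adjusted p = 0.00129) and Kcnc2 (-0.45, adjusted p = 0.0226) were lower, and Kcnh2 (0.57, adjusted p = 0.0405, or 0.0651 with the rat as a block) and Kcns1 (0.47, adjusted p = 0.0124) were higher. Without 1 array, Kcnh2 was not called in 13 of 20 cases, and Kcnc2 was not called without contralateral sham rat 14 (limma adjusted p = 0.0508). The call of Kcns1 ended after quantile normalization (0.37, limma adjusted p = 0.0932) and that of Kcnc2 with equal medians (-0.35, adjusted p = 0.0859). On their second probe sets Kcnab1 (-0.27, limma adjusted p = 0.433) and Kcnc2 (-0.20, adjusted p = 0.550) were not called. Kcna1 was not among the 4. It was lower on the ipsilateral side in sham L4 DRGs too, at 349 ± 32.1 against 537 ± 26.8 (SD, n = 5 each; log2 fold change -0.60, limma adjusted p = 6.94e-06), without overlap. Kcnh2, the ERG1 channel gene, had log2 fold changes of 0.35 in SNL L4 and -0.23 in sham L4, neither of them called on its own.

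Sham rats had side differences of their own. In sham L5, 7 of the 35 genes were lower and 6 higher, against 19.3% and 31.1% of all probe sets, with log2 fold changes from -0.37 (Kcnab2) to 0.85 (Kcnq3). Over the brightest probe set of each gene the balance was the other way, with 28.2% lower and 21.4% higher. Of the 6 higher genes, Kcnq5, Kcnk6 and Kcnq3 (27.4 ± 2.84 against 8.12 ± 1.92, SD, n = 5 each) did not overlap between sides, and Kcnj3, Kcnj6 and Kcna3 did. The 7 lower genes were Kcnab2, Kcnk2, Kcns1, Kcnh1, Kcnt1, Kcna5 and Kcna2, at -0.37 to -0.13, of which Kcna2 and Kcnt1 were not called with the rat as a block (limma adjusted p = 0.0734 and 0.0522). Without 1 of the 10 arrays, Kcnt1 lost its call in 8 cases, Kcna2 in 7 and Kcna5 in 6. In quantile-normalized data Kcns1 (-0.10, limma adjusted p = 0.177), Kcnh1 (-0.18, adjusted p = 0.0658), Kcnt1 (-0.19, adjusted p = 0.131), Kcna5 (-0.10, adjusted p = 0.353) and Kcna2 (-0.08, adjusted p = 0.219) were not called lower, nor Kcnj6 higher (0.29, adjusted p = 0.122), and with equal medians Kcnq5 and Kcnk6 (0.21, adjusted p = 0.0595) were not called higher. The second probe set of Kcnab2 went the other way here too, at 49.8 ± 10.7 in ipsilateral and 17.7 ± 2.07 in contralateral DRGs (SD, n = 5 each; log2 fold change 0.95). With equal medians, which moved the median of all probe sets by over 0.1 to -0.10, 4 of the 35 genes were higher and 16 lower, and all probe sets split into 6079 higher and 12901 lower, against 9640 and 5978 as deposited. In sham L4, 3 genes were lower (Kcna1, Kcna5 at -0.31 and Kcnh1 at -0.28) and 2 higher (Kcnk6 at 0.46 and Kcnq5 at 0.26), against 9.85% and 17.3% of all probe sets. Over the brightest probe set of each gene the sham L4 shares were 13.7% lower and 12.8% higher. Kcnh1 was not called without any 1 of 7 arrays there, and Kcna5 was not called without ipsilateral rat 14 or 17. Quantile normalization ended the call of Kcnh1 (limma adjusted p = 0.0517). With equal medians 10 genes were lower there and 0 higher, with Kcnq5 at 0.039 and Kcnk6 at 0.28 (limma, with 3152 higher and 8552 lower probe sets against 5355 and 3058 as deposited).

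The injured and the neighbouring segment of the same SNL rats were compared directly. The side difference in L5 differed from that in L4 for 12 of the 35 genes, against 19.2% of all probe sets and 25.4% of those brightest for their gene. It was lower in L5 for 10 genes, namely Kcns1 (-2.41), Kcns3 (-2.29), Kcnab1 (-1.84), Kcnab2 (-1.29), Kcnc2 (-1.24), Kcna2 (-1.14), Kcnq5 (-0.93), Kcnv1 (-0.87), Kcnc1 (-0.78) and Kcnb2 (-0.72), with limma adjusted p-values of 3.35e-15 to 0.0209. It was higher in L5 for Kcnk6 (0.69) and for the vascular ATP-sensitive channel gene Kcnj8 (0.77), whose signals averaged 6.20 and 2.19 in ipsilateral and contralateral L5 DRGs and 2.72 and 11.1 in ipsilateral and contralateral L4 DRGs. At these very low signals, Kcnj8 was called neither in SNL L5 (0.27, limma adjusted p = 0.112) nor in SNL L4 (-0.50, adjusted p = 0.0551). Kcna1 was not called in this contrast. A second probe set existed for 6 of the 12 called genes, and all 6 lost their call there. The values were -0.46 for Kcnab1, -0.39 for Kcnq5, -0.16 for Kcna2, -0.006 for Kcnc2, 0.038 for Kcnab2 and 0.24 for Kcnk6. The SNL L5 and L4 arrays belong to different series.

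Other genes of the same channels were read from lists chosen with earlier results known. Each gene was read from its brightest probe set, and by that measure 19.0% of all genes were called lower and 35.4% higher in SNL L5. Of 50 further potassium channel genes 34 were measured, and 5 (14.7%) were lower and 7 (20.6%) higher in SNL L5, against 16.8% and 30.3% of all probe sets. The largest among them were Kcna4 (Kv1.4), at 178 in ipsilateral and 600.0 in contralateral DRGs (-1.67), and Kcnj15 (1.06), Kcnk5 (0.79) and Kcnn4 (0.66), which were higher. Of 13 measured partners of Kv1 channels along axons, 9 (69.2%) were lower and 2 (15.4%) higher, against the same 16.8% and 30.3%, among them Lgi3 (-1.24), Adam22 (-1.23) and Cntnap2 (-1.22), which encodes Caspr2 of the region beside the node, all lower, and Lgi4 (1.23), a Schwann cell gene that was higher. Of 11 measured genes that regulate potassium channel transcription or gating, 8 (72.7%) were higher and 1 (9.09%) lower, against 30.3% and 16.8% of all probe sets, led by Bdkrb2 (0.87), Hdac2 (0.84), F2r (-0.78) and Ehmt2 (0.73), which encodes the histone methyltransferase G9a.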

How the data were processed

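The deposited table holds linear intensity values, 1 column for each of 40 Affymetrix rat arrays, which the authors computed with MAS 5 (its version is not known here). The trimmed mean signal was 99.993 on every array. Groups and rat numbers came from the sample labels. Detection calls were not used, and the miRNA data of the study are not analysed here.

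After 57 control probe sets were left out, 31042 were analysed as log2(signal + 16). Each comparison of sides was fitted to its own 10 arrays, and each difference between comparisons to 20, with limma 3.58.1 (lmFit, then eBayes with trend = TRUE) under R 4.3.3. P-values are two-sided and were adjusted by Benjamini-Hochberg over all probe sets, with calls at an adjusted p under 0.05. For the mRNA arrays the methods name a plain t-test (a paired one only for miRNA), so the rat was not a term. The fits were tested on simulated data.

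The members and lists were chosen with earlier results of these data known. Values on each array are given for genes called in SNL L5 or SNL L4 with a log2 fold change of at least 0.5 in size, sides that do not overlap and a mean signal of at least 50 on 1 side, which 13 genes met. Up to 4 called genes of each list are named.

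The rat numbers pair the sides, since the same rat gave both DRGs. For the 2 DRGs of a rat, deviations from group means had a correlation of -0.06 to 0.04 in SNL L5, -0.01 to 0.04 in SNL L4, -0.14 to 0.01 in sham L5 and -0.05 to 0.10 in sham L4. Alternatives were offsets of 1 and 64, quantile normalization, equal medians, a filter on dim probe sets, a rat block, no trend, other thresholds, the methods' t-test, 1 fit of all 8 groups, the second brightest probe set, leaving out each array, and the sham L5 arrays in place of the contralateral SNL L5 arrays. Depth does not apply to arrays, and their number limits the precision. Promoters came from RefSeq (GRCr8).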

Additional observations from a re-analysis of the deposited data

Results flagged for a closer look

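In 12 of 280 sets of 5 arrays (35 genes in 8 groups), 1 array lay far from the other 4 by Dixon's criterion, which marks about 1 in 20 groups by chance. In sham rats these were Kcnc2 in ipsilateral L5 of rat 1 (317, the next at 420.3) and in contralateral L5 of rat 22 (331, the next at 414), Kcnma1 in contralateral L5 of rat 22 (56.7), Kcnb2 in contralateral L5 of rat 23 (88.0), Kcnn1 in contralateral L5 of rat 17 (8.94), Kcna3 in ipsilateral L5 of rat 14 (2.25), Kcns3 in contralateral L4 of rat 1 (513, the next at 414), Kcnh1 in contralateral L4 of rat 23 (103) and Kcnk1 in ipsilateral L4 of rat 14 (1.58). In SNL rats they were Kcnt1 in ipsilateral L4 of rat 9 (3.44, the next at 40.8), Kcnmb1 in ipsilateral L4 of rat 48 (32.0) and Kcnmb1 in ipsilateral L5 of rat 18 (2.55).

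Side differences that differed between SNL and sham rats at L5 in limma were, as log2 values, those of Kcnab1 (-2.59), Kcns3 (-2.33), Kcns1 (-1.82), Kcnc2 (-1.66), Kcna2 (-1.12), Kcnq5 (-0.93), Kcnj3 (-0.91), Kcnv1 (-0.77), Kcna1 (-0.75), Kcnab2 (-0.74), Kcnb2 (-0.72), Kcnc1 (-0.65), Kcnq3 (-0.64), Kcnma1 (-0.49), Kcnh6 (-0.46), Kcnt1 (-0.36), Kcna5 (-0.29), Kcna6 (0.32), Kcnj9 (0.41), Kcnk2 (0.42) and Kcnmb4 (0.55). At L4 they were those of Kcnab1 (-0.74), Kcnc2 (-0.45), Kcns1 (0.47) and Kcnh2 (0.57). Between L5 and L4 of SNL rats they were those of Kcns1 (-2.41), Kcns3 (-2.29), Kcnab1 (-1.84), Kcnab2 (-1.29), Kcnc2 (-1.24), Kcna2 (-1.14), Kcnq5 (-0.93), Kcnv1 (-0.87), Kcnc1 (-0.78), Kcnb2 (-0.72), Kcnk6 (0.69) and Kcnj8 (0.77).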

How the results depend on the processing

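The 16 genes lower in SNL L5 numbered 12 to 18 under the alternatives run, with 12 when dim probe sets were left out and with the second brightest probe set, and no scaling turned the direction of a called gene. Genes with a single probe set kept it in the latter setting and could not change. In SNL L5, 10 of the 20 called genes had a second probe set, and 7 lost their call there (Kcna2, Kcna6, Kcnab2, Kcnc2, Kcnj3, Kcnk6 and Kcnq5), while Kcnj6 gained one. In SNL L4, 3 of the 6 called genes had one, and all 3 lost their call (Kcnab1, Kcnc2 and Kcnq5). Between SNL and sham at L5, 11 of the 21 called genes had one, and 7 lost their call (Kcna2, Kcna6, Kcnc2, Kcnj3, Kcnk2, Kcnq3 and Kcnt1). Between SNL and sham at L4, 2 of the 4 called genes had one, and these 2 lost their call (Kcnab1 and Kcnc2). The 4 genes higher in SNL L5 became 2 after quantile normalization, with equal medians, at an adjusted p under 0.01 and at a log2 fold change of at least 0.5, and 9 against contralateral sham L5 arrays (added after the data were seen). In SNL L4, the 3 higher genes became 1 after quantile normalization, 0 with equal medians, 1 without the intensity trend, 0 by the methods' t-test, 7 in the fit of all 8 groups, 0 at an adjusted p under 0.01 and 1 at a log2 fold change of 0.5, and the 3 lower genes became 5 after quantile normalization, 7 with equal medians, 7 in the fit of all 8 groups, 1 at a log2 fold change of 0.5 and 1 with the second brightest probe set. In sham L5, the 6 higher genes became 1 with dim probe sets left out and 3 at a log2 fold change of 0.5, and the 7 lower genes became 16 with equal medians, 4 without the trend, 3 in the fit of all 8 groups, 3 at an adjusted p under 0.01, 0 at a log2 fold change of 0.5 and 3 with the second brightest probe set. In sham L4, the 2 higher genes became 0 with equal medians, 0 at a log2 fold change of 0.5 and 4 with the second brightest probe set, and the 3 lower genes became 10 with equal medians, 1 at an adjusted p under 0.01 and 1 at a log2 fold change of 0.5. The 4 genes that differed between SNL and sham at L4 became 1 at an adjusted p under 0.01, 2 at a log2 fold change of 0.5 and 2 with the second brightest probe set. The cause was not tested, except that stricter thresholds and the filter admit fewer genes by construction. Leaving out 1 array at a time gave 2 to 5 higher and 16 lower genes in SNL L5, 0 to 3 higher and 3 to 4 lower in SNL L4, 6 to 7 higher and 4 to 6 lower in sham L5, 2 to 3 higher and 1 to 3 lower in sham L4, and 16 to 22, 2 to 4 and 12 to 15 differing genes for SNL against sham at L5, at L4 and for L5 against L4. Counts moved by over 1.5 times without ipsilateral rat 18 (2) or contralateral rats 4 (2) or 9 (2) for higher genes in SNL L5, without ipsilateral rats 4 (1) or 9 (1) or contralateral rats 8 (1) or 18 (0) for higher genes in SNL L4, without contralateral rats 1 (4), 14 (4) or 23 (4) for lower genes in sham L5, without ipsilateral rats 14 (1) or 17 (1) for lower genes in sham L4, and without contralateral sham rat 14 (2) for the difference at L4. With the rat as a block, pairing the sides, 16 genes were lower and 4 higher in SNL L5, and beside the calls named in the report no other gene lost its call, while Kcnma1 gained one in SNL L4 (-0.37, limma adjusted p = 0.0472) and Kcna3 and Kcnh1 gained one each between SNL and sham at L5. Quantile normalization gave 8 lower genes in sham L5 but ended 5 of the 7 calls named in the report. The second brightest probe set, usually dim, reversed the log2 fold change of Kcna6 (-0.076), Kcnab2 (0.40), Kcnc2 (0.34), Kcnj3 (0.20) and Kcnk6 (-0.0033) in SNL L5, of Kcnc2 (0.34) in SNL L4, of Kcnab2 (0.95), Kcnj6 (-0.17), Kcnk2 (0.25), Kcnk6 (-0.0068) and Kcnt1 (0.061) in sham L5, of Kcna6 (-0.26) and Kcnk2 (-0.053) between SNL and sham at L5, and of Kcnab2 (0.038) between L5 and L4. Kcnj3 also reversed against contralateral (0.50) and ipsilateral (0.014) sham L5 arrays. Genes of low signal are the least precise, since their fold change is pulled toward 0 by the offset.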

Other observations

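Of the 34 further potassium channel genes measured, 4 (11.8%) were called higher and 0 lower in SNL L4. Of all probe sets, 10.1% were higher and 9.01% lower there. In sham L5, 11 (32.4%) were higher and 2 (5.88%) lower, against 31.1% and 19.3% of all probe sets. In sham L4, 6 (17.6%) were higher and 0 lower, against 17.3% and 9.85%. Over the brightest probe set of each gene, the measure used for these genes, the shares were 10.97% higher and 10.02% lower in SNL L4. By that measure they were 21.4% and 28.2% in sham L5, and 12.8% and 13.7% in sham L4. These lists were not fitted under the other scalings. Kcnk5, the gene of the alkali-activated two-pore channel TASK-2, was called higher in ipsilateral DRGs in all 4 comparisons of sides, without overlap. It averaged 159 ± 16.96 in ipsilateral and 85.7 ± 9.64 in contralateral L5 DRGs of SNL rats (SD, n = 5 each; log2 fold change 0.79, limma adjusted p = 5.01e-07). Its log2 fold change was 0.39 in SNL L4, 0.46 in sham L5 and 0.27 in sham L4. Kcnh3, a gene of the ether-a-go-go-like family, showed the same order of sides at lower signals, with log2 fold changes of 0.46 in SNL L5, 0.75 in SNL L4, 0.63 in sham L5 and 0.62 in sham L4. Kcna4, the gene of the rapidly inactivating Kv1.4 channel of small sensory neurons, was called lower after ligation in L5, whereas in sham L5 it averaged 568 ± 43.3 in ipsilateral and 478 ± 19.8 in contralateral DRGs (SD, n = 5 each) and was called higher at 0.24 (limma adjusted p = 0.00218). In L4 it was not called, with log2 fold changes of -0.17 in SNL and -0.0053 in sham rats.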
